A study of Caenorhabditis elegans with 8 samples.

Results

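The genes described here encode RNA polymerase II (Pol II) itself and the proteins that act on it directly. They comprise the 12 subunits of the enzyme, the kinases, cyclins and phosphatase of its C-terminal domain (CTD), the SPT4, SPT5 and SPT6 factors, the PAF complex with TFIIS, and a set of Mediator subunits. The 40 genes were taken by sequence name from a list based on function, which was drawn up with earlier results of these data known. Of these, 36 were among the 8922 genes in the deposited table, and the other 4 had a call in neither condition.

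AMA-1, the largest Pol II subunit, was immunoprecipitated from Caenorhabditis elegans embryos of strain KW2309 between the 1-cell and the 350-cell stage, and the bound DNA was sequenced (ChIP-seq). Control embryos carried the L4440 label, which is the empty feeding vector of C. elegans RNAi, and the others were from sig-7 RNAi, labelled as loss of sig-7. The sig-7 product is a cyclophilin of the nucleus that also holds an RNA-binding domain. Each condition had 2 AMA-1 ChIP libraries and 2 input libraries, and the labels do not say whether replicates came from separate cultures or whether strain KW2309 carries a transgene. All embryos shared the strain, were collected from adults grown for 72 h, and were fixed in 2% formaldehyde for 22 min. The stage range mixes cells of many lineages, so a call cannot be assigned to a tissue.

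The deposited measurement is a call per gene and condition. A call of 1 means that a peak lay over the gene in both replicates, and a call of 0 means that this held in at most 1 replicate. A gene called in a single condition can therefore have had a peak in 1 replicate of the other. No read counts, peak heights or values per library are used here, so the depth is unknown, no error between replicates can be given and no test between the conditions exists. Calls do not measure how much polymerase was bound. The gene sig-7 itself had a call in sig-7(RNAi) embryos only, and since a polymerase call does not give a transcript level, it does not check the knockdown.

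As background, Pol II transcribes protein-coding genes, and its CTD is a tail of repeated heptapeptides on AMA-1 that is phosphorylated in turn during the transcription cycle. Mediator relays signals from transcription factors to the enzyme at promoters. CDK7, in the general factor TFIIH, phosphorylates the CTD at initiation, and CDK9 with cyclin T (P-TEFb) and CDK12 phosphorylate it during elongation, when SPT5, SPT6 and the PAF complex travel with the polymerase. In C. elegans embryos, the early germline blastomeres keep Pol II phosphorylation low through PIE-1 while somatic cells begin zygotic transcription.

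Most of the machinery genes had a call in both conditions. In control embryos 27 of 40 were called (67.5%), where 22.8% of the 19983 protein-coding genes of the gene table were called. In sig-7(RNAi) embryos 32 of 40 were called (80.0%), against 23.9% of protein-coding genes. Over all genes of the gene table, noncoding ones included, 14.4% were called in control and 13.9% in sig-7(RNAi). Calls in both conditions were made at 23 genes (57.5%, background 16.8%), in control only at 4 (background 6.03%), in sig-7(RNAi) only at 9 (22.5%, background 7.05%) and in neither at 4 (background 70.1%). The shares called in each condition were thus well above those of protein-coding genes at large. The 67 further transcription genes described below also exceeded that background, with 61.2% called in control and 68.7% in sig-7(RNAi). Of these 67, 56.7% were called in both. Shares above the background were thus not particular to the 40 genes. Of the 2613 protein-coding genes called in a single condition, 46.1% were control only. Of the 13 such genes among the 40, 30.8% were. With 13 genes, the exact binomial 95% interval of that share ran from 9.09% to 61.4% and contains the background. It covers the counting of genes only, and genes are not replicates.

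**Figure D1:**
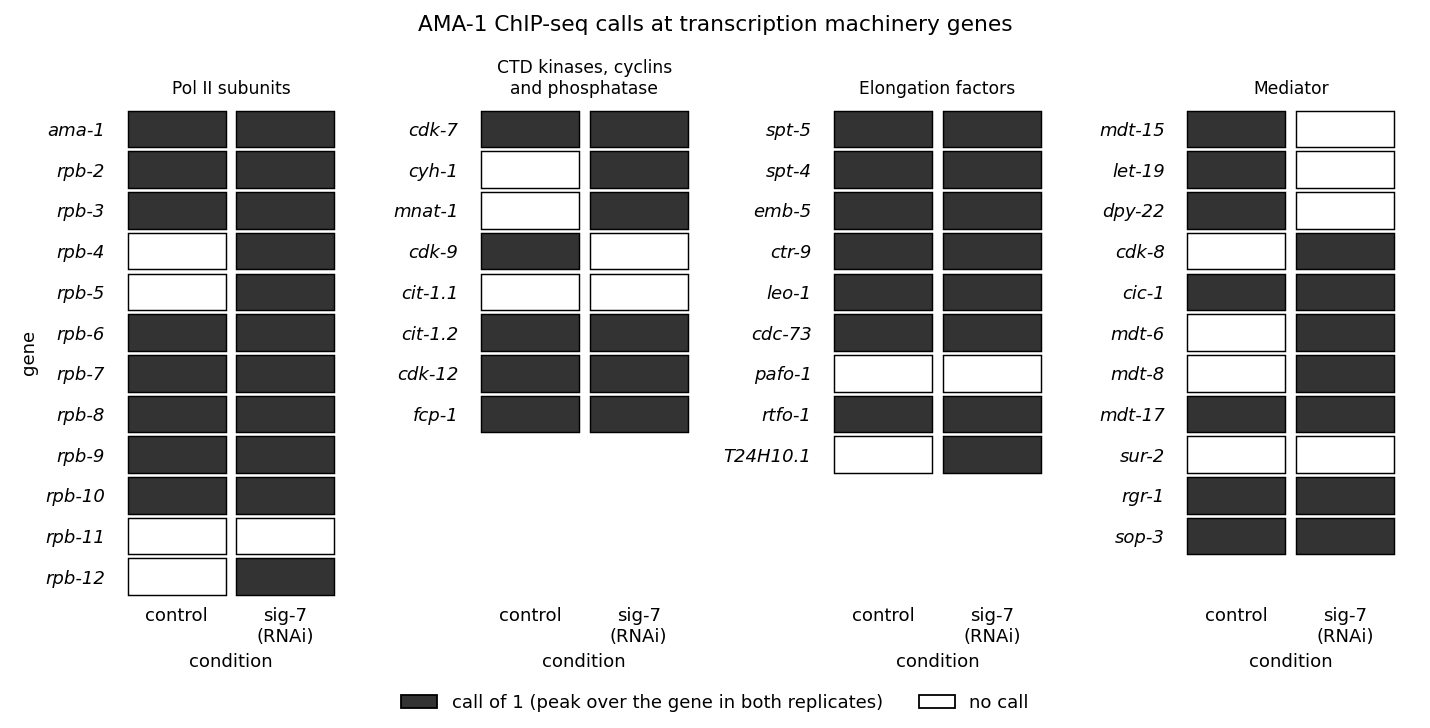
Calls at each of the 40 genes (rows) in control and sig-7(RNAi) embryos (columns), in 4 panels by role. A filled box is a call of 1, which needs a peak over the gene in both replicates, and an open box is no call; 23 genes are filled in both columns, 4 in the left column only, 9 in the right column only and 4 in neither.

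Of the 12 genes for Pol II subunits, 8 were called in control (66.7%, background 22.8%) and 11 in sig-7(RNAi) (91.7%, background 23.9%). The 8 control calls were all shared, where 73.6% of protein-coding genes with a control call had a sig-7(RNAi) call too. With 12 genes, the difference between the conditions was not tested. The absence of control-only calls among 12 genes is close to the background share of 6.03%. ama-1 (F36A4.7), which encodes the target of the antibody, was called in both conditions. So was rpb-2 (C26E6.4), which encodes the subunit that forms the active site together with AMA-1. rpb-3 (C36B1.3) was called in both, whereas rpb-11 (W01G7.3) was called in neither, although in yeast their products pair with each other as the assembly platform of the enzyme. The stalk genes rpb-4 (F43E2.2) and rpb-7 (Y54E10BR.6) likewise had unlike calls, with rpb-4 in sig-7(RNAi) only and rpb-7 in both. rpb-9 (Y97E10AR.5), whose yeast homologue takes part in transcript cleavage and fidelity, was called in both.

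In yeast, 5 of the small subunits are shared by RNA polymerases I, II and III. Their C. elegans genes had a call in sig-7(RNAi) in 5 of 5 cases (background 23.9%) and in control in 3 (background 22.8%). rpb-6 (C06A1.5), rpb-8 (F26F4.11) and rpb-10 (Y37E3.3) were called in both conditions. rpb-5 (H27M09.2) and rpb-12 (F23B2.13) had a sig-7(RNAi) call only (background 7.05%). The difference between the conditions is that of these genes, and it was not tested. The 7 genes for subunits of Pol II alone had 5 calls in both (background 16.8%), 1 in sig-7(RNAi) only and 1 in neither (background 70.1%).

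Genes for CTD kinases, cyclins and the phosphatase were split over all call classes, with 4 of 8 in both conditions (50.0%, background 16.8%). Of the CDK-activating kinase, cdk-7 (Y39G10AL.3) was called in both conditions. The genes of its partners, cyh-1 (Y49F6B.1) for cyclin H and mnat-1 (F53G2.7) for the assembly factor MAT1, were called in sig-7(RNAi) only. P-TEFb showed a different split. Here cdk-9 (H25P06.2), for the kinase, had a call in control alone, and of its cyclin T genes, cit-1.2 (F44B9.3) was called in both and cit-1.1 (F44B9.4) in neither. These cyclin T genes are related copies that lie directly beside each other, and how reads common to both were treated is not given in the sources used here, so their separate calls are uncertain. cdk-12 (B0285.1), the main kinase for the second serine of the CTD repeat in the C. elegans germline, was called in both conditions. fcp-1 (F36F2.6), the CTD phosphatase gene, was called in both as well.

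Elongation factors had the highest share of shared calls of the 4 roles, 7 of 9 (77.8%, background 16.8%). Pol II subunit genes came next with 8 of 12 (66.7%). With so few genes per role, this order is a description and was not tested. All 3 SPT genes were called in both conditions. They are spt-4 (F54C4.2) and spt-5 (K08E4.1), which encode the DSIF pair, and emb-5 (T04A8.14), which encodes the SPT6 histone chaperone. In the PAF complex, 4 of 5 genes were called in both, namely ctr-9 (B0464.2), leo-1 (B0035.11), cdc-73 (F35F11.1) and rtfo-1 (F25B3.6). pafo-1 (C55A6.9), which encodes the PAF1 homologue, was called in neither. The TFIIS gene T24H10.1, whose product helps stalled polymerase to resume, was called in sig-7(RNAi) only.

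The Mediator genes of the list were divided over all call classes. Of the 11, 4 were called in both conditions (36.4%, background 16.8%) and 3 in control alone (27.3%, background 6.03%). In sig-7(RNAi) alone 3 were called (27.3%, background 7.05%), and 1 was called in neither (background 70.1%). The 7 called in control and the 7 called in sig-7(RNAi) were therefore equal in number but overlapped in 4 genes, which is 57.1% of each set. Of the protein-coding genes with a control call 73.6% had a sig-7(RNAi) call too, and of the Pol II subunit genes 8 of 8 did. Over the list's Mediator genes together with 16 other Mediator genes, the share was 81.2%, above the protein-coding share. In the other direction, 3360 of the 4769 protein-coding genes with a sig-7(RNAi) call had a control call too. These differences were not tested, and the list's Mediator share rests on only 7 genes per condition. Of the 4 control-only genes among all 40, 3 were Mediator genes and the other was cdk-9.

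By the modules known from yeast and human Mediator, the calls fell as follows. The kinase module, a detachable part that in most settings represses, had all of its 4 genes called in at least one condition. Its large subunits let-19 (K08F8.6, MED13) and dpy-22 (F47A4.2, MED12), which restrain Wnt target genes in C. elegans, were called in control only. Its kinase gene cdk-8 (F39H11.3) was called in sig-7(RNAi) only, and its cyclin C gene cic-1 (H14E04.5) in both. In the tail, mdt-15 (R12B2.5), a regulator of lipid metabolism and stress genes in C. elegans, was called in control only. sur-2 (F39B2.4, MED23), known from Ras signalling in vulval development, was called in neither. In the head, which contacts the polymerase, mdt-6 (Y57E12AL.5) and mdt-8 (Y62F5A.1) were called in sig-7(RNAi) only and mdt-17 (Y113G7B.18) in both. rgr-1 (C38C10.5, MED14), the backbone, and sop-3 (Y71F9B.10, MED1) of the middle module were called in both conditions.

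**Figure D2:**
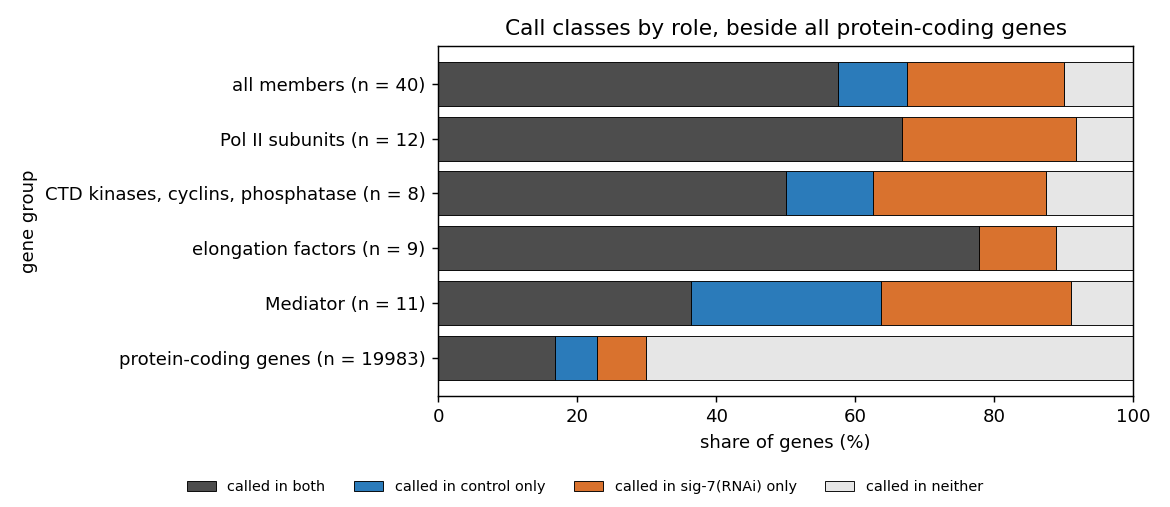
Share of genes in each call class (horizontal axis, percent) for all 40 genes, for each role and for the 19983 protein-coding genes of the gene table (vertical axis, n in parentheses). Shared calls make up between 36.4% (Mediator) and 77.8% (elongation factors) of each role, against 16.8% of protein-coding genes. Control-only calls are 3 Mediator genes and 1 CTD kinase gene, and their lack in the other roles is close to the background share of 6.03%.

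A broad peak can call several adjacent genes, so each call was read together with those of the nearest protein-coding gene on either side. Of the 23 genes called in both conditions, 18 (78.3%) had an adjacent gene called in both, close to the 82.0% over all protein-coding genes of that class. ama-1 was the only one of the 23 with no adjacent call in either condition. Its neighbours ttr-20 and col-33, a cuticle collagen gene, were called in neither, so the call at ama-1 was not shared with an adjacent protein-coding gene. Of the 9 genes called in sig-7(RNAi) only, 7 (77.8%) adjoined another gene of the same class, where 48.9% of such protein-coding genes did. Of the 4 control-only genes, 2 did (50.0%, against 53.6%). With 9 and 4 genes these shares are descriptions.

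cdk-9 and dpy-22 were the control-only genes that stood alone. cdk-9 lay between hxk-2, a hexokinase gene, and M04D5.1, and dpy-22 between lgc-47 and rrc-1, and none of these 4 neighbours was called. M04D5.4, a noncoding gene next after cdk-9 in the order of gene starts, was also called in control only. mdt-15 shared its control-only call with the gene before it, R12B2.8, and the gene after it, R12B2.13, was not called. let-19 shared its call with sgn-1 after it, and K08F8.15 before it was not called. 0 of the 4 adjoined a gene called in both conditions, which with 4 genes cannot be told from the 25.2% of control-only protein-coding genes that did.

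Among genes called in sig-7(RNAi) only, T24H10.1 alone had no adjacent call, with clh-5 and T24H10.5 uncalled on either side. rpb-5 adjoined sacy-1, called in both conditions, and the uncalled synaptonemal gene syp-4. rpb-4 lay between mtch-1, in sig-7(RNAi) only, and F43E2.1, in both. rpb-12 followed the neuropeptide gene flp-1, in sig-7(RNAi) only, with aly-2 uncalled after it. cyh-1 followed Y49F6B.2 and mnat-1 followed tsr-1, both in sig-7(RNAi) only, while Y49F6B.19 and F53G2.12 after them were not called. mdt-6 lay between Y57E12AL.2 and Y57E12AL.6, both in sig-7(RNAi) only, and mdt-8 lay between the uncalled Y62F5A.10 and Y62F5A.12, in sig-7(RNAi) only. A peak of the gene itself and one shared with its neighbour cannot be told apart in these calls.

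**Figure D3:**
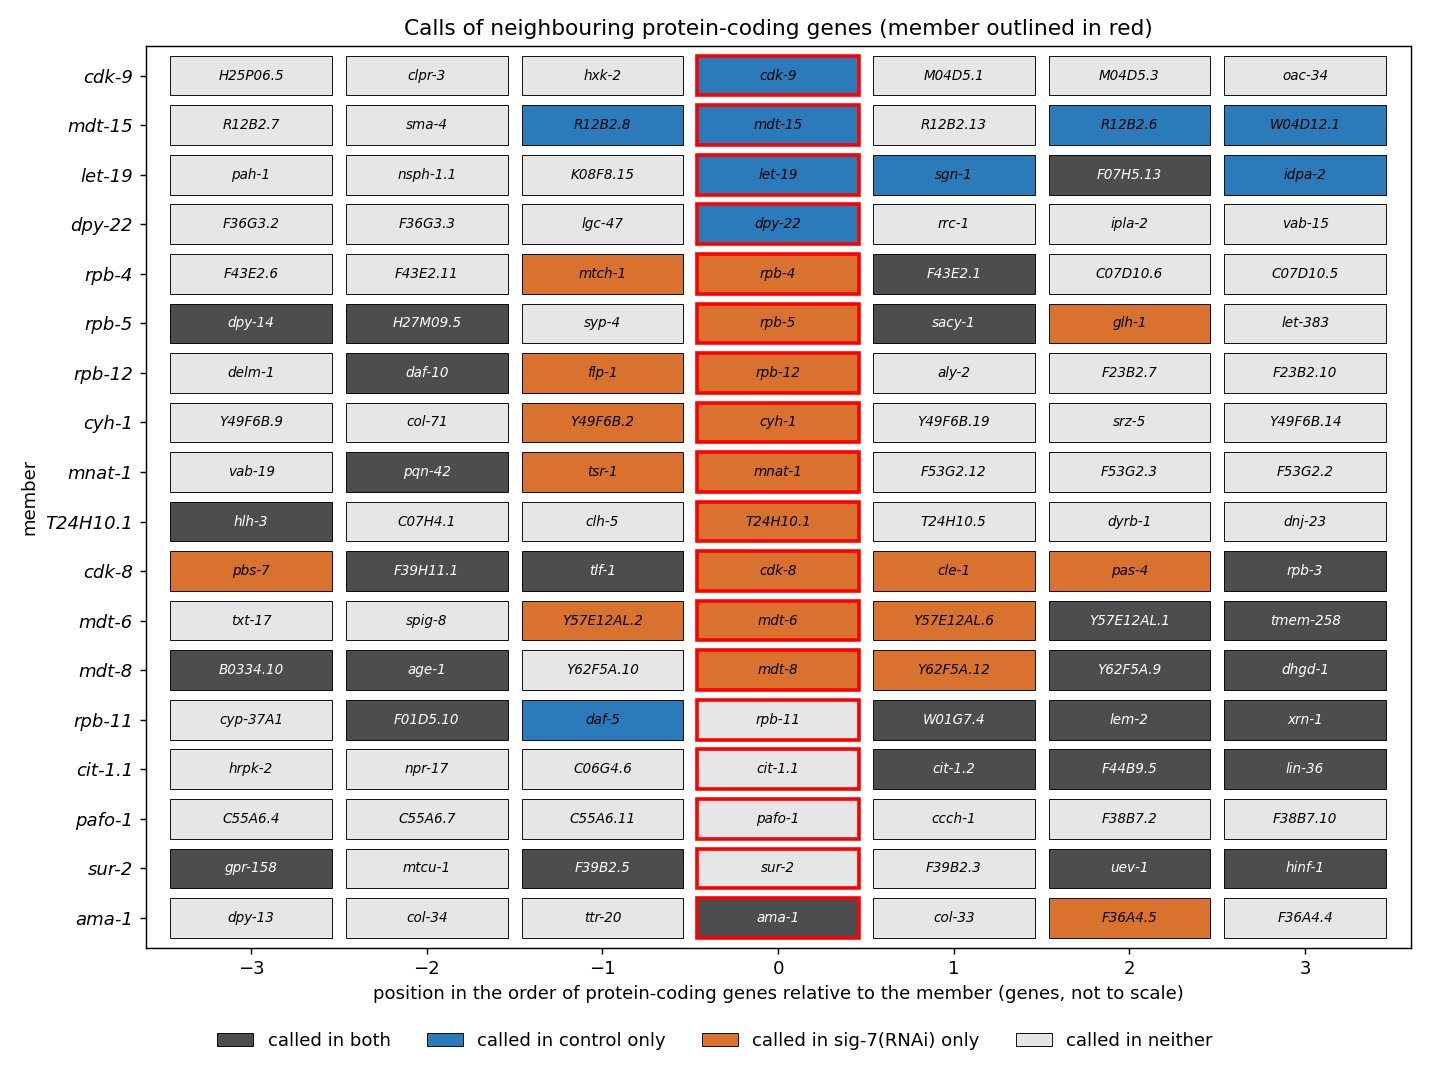
Calls of up to 3 protein-coding genes on either side (horizontal axis, position in gene order, not to scale) of the 13 genes called in a single condition, the 4 called in neither, and ama-1 (vertical axis). Colours give the call class of each gene and the red outline the gene named on the left; cdk-9 and dpy-22 stand alone as control-only calls, and ama-1 stands between uncalled neighbours.

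The genes called in neither condition had unlike surroundings. rpb-11 lay between daf-5, in control only, and W01G7.4, in both, and cit-1.1 lay beside cit-1.2. sur-2 lay between F39B2.5, called in both, and the uncalled F39B2.3. pafo-1 was the exception, with C55A6.11 before it and ccch-1 after it both uncalled.

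Of the 40 genes, 13 had no adjacent protein-coding gene called in control, and 6 of these 13 (46.2%) were themselves called, against 6.21% of protein-coding genes in the same position. In sig-7(RNAi) embryos 7 genes had no adjacent call and 2 of them (28.6%), ama-1 and T24H10.1, were called, against 5.45%. Where an adjacent gene was called, 77.8% of 27 members were called in control and 90.9% of 33 in sig-7(RNAi), against 51.2% and 55.5% of protein-coding genes. Away from called genes, the exact binomial 95% interval of the members' share began at 19.2% in control and at 3.67% in sig-7(RNAi). The control start lay above the background of 6.21%, and the sig-7(RNAi) interval contains its background of 5.45%. These intervals cover the counting of genes only, and genes are not replicates. As the list was also drawn up with earlier results of these data known, they cannot test either share against the background.

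Several shared genes lay in longer stretches of called genes in sig-7(RNAi) than in control. rpb-3 and cdk-8 belonged to a single stretch of 10 consecutive called protein-coding genes in sig-7(RNAi) embryos. This stretch also held the proteasome genes pbs-7 and pas-4, the TBP-like factor gene tlf-1 and cle-1, a basement membrane collagen gene. In control, rpb-3 lay in a stretch of 3 genes, with cdk-8, cle-1 and pas-4 uncalled. rpb-10 lay in a stretch of 9 in control, which held rplp-1, rpl-27A and the translation initiation factor gene eif-2alpha, and in one of 15 in sig-7(RNAi), which also held the nucleoporin gene npp-13. leo-1 was alone in control and in a stretch of 8 with the histone genes his-55 to his-58 in sig-7(RNAi), joined to them through sart-3, called in sig-7(RNAi) only.

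Over the 23 genes called in both, the stretch was longer in sig-7(RNAi) for 9 (39.1%), equal for 11 (47.8%) and shorter for 3 (13.0%), namely cdk-12, spt-4 and mdt-17. Over the 3360 protein-coding genes called in both, the shares were 39.5%, 46.4% and 14.0%. The longer stretches at machinery genes were thus as frequent as at shared genes in general.

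Further genes of the transcription machinery were counted by symbol for comparison. Of 10 genes for subunits of RNA polymerases I and III, 9 were called in both conditions, among them rpoa-1 and rpc-1 for the largest subunits, and rpoa-2 in neither. The background share for a call in both was 16.8%. None was called in a single condition. With 10 genes that is close to the background shares, 6.03% for control only and 7.05% for sig-7(RNAi) only. Of 16 other Mediator genes, 9 had a shared call, 0 a control-only call, mdt-1.2 and mdt-19 a sig-7(RNAi)-only call and 5 none. Their lack of control-only calls is likewise close to the background share. The 27 Mediator genes counted here had 13 shared calls, 3 control-only calls and 5 sig-7(RNAi)-only calls. The control-only calls among these 27 were thus those of mdt-15, let-19 and dpy-22. As the 16 were found by symbols that start with mdt, a Mediator gene under another symbol can be missing.

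Of 33 general transcription factor genes, 16 were called in both conditions (48.5%, background 16.8%) and 3 in control only (9.09%, background 6.03%). In sig-7(RNAi) only 5 were called (15.2%, background 7.05%), and 9 were called in neither (27.3%, background 70.1%). tbp-1 and ttb-1, which encode the TATA-binding protein and TFIIB, were called in both. Of 17 TAF genes of the TFIID complex, 8 were called in both (47.1%, background 16.8%). taf-13 was called in control only (5.88%, background 6.03%), and taf-1, taf-8 and taf-11.1 in sig-7(RNAi) only (17.6%, background 7.05%). TFIIH, which opens promoter DNA and carries the CDK7 kinase, was grouped after its calls were seen. Of its 10 genes, cdk-7 and its partners included, cdk-7 alone was called in both, a share near the 16.8% of protein-coding genes. cyh-1, mnat-1, the helicase gene xpb-1 and gtf-2H1 were called in sig-7(RNAi) only, gtf-2H2C and gtf-2H5 in control only, and 3, among them xpd-1, in neither. Of 8 FACT and termination genes, 4 were called in both (50.0%, background 16.8%), including spt-16 and the exonuclease gene xrn-2. hmg-4 was called in sig-7(RNAi) only (12.5%, background 7.05%). hmg-4 has a close copy, hmg-3, called in both, which makes its own call uncertain.

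**Figure D4:**
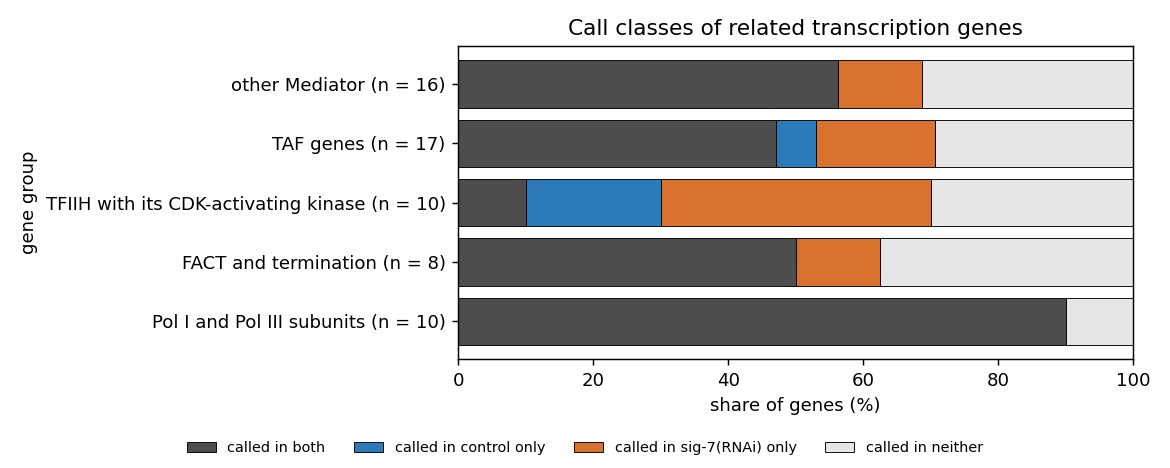
Share of genes in each call class (horizontal axis, percent) for related groups of transcription genes (vertical axis, n in parentheses). Shared calls are 90.0% of the bar for Pol I and Pol III subunits and 1 gene of 10 for TFIIH with its CDK-activating kinase, which was grouped after its calls were seen and is near the 16.8% of protein-coding genes.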

How the data were processed

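Each deposited value is 0 or 1, a category for 1 gene in 1 condition that fits no measured unit. Per the file headers, the authors ran MACS2 with its broad option and a cutoff of 0.01, and a gene was matched to a peak by an overlap of at least 250 bp or 45% of its length. The submitters' processing notes name Bowtie 1.0.1 and genome build ce10. Not given in the sources used here are the annotation, the version of MACS2 and whether the inputs entered peak calling.

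The names were looked up, ignoring case, among the locus tags of RefSeq's WBcel235 gene table, which gave 8824 matches and left 98 unmatched. As the builds differ, that table served only for names, kinds of gene and gene order. Gene lengths, strands and sequences were not used. Names absent from the deposited table were counted as not called. A stretch is a run of consecutive protein-coding genes called in a condition. Counting used Python 3.11.15 and pandas 2.3.3, exact binomial (Clopper-Pearson) intervals SciPy 1.17.1, and the functions were tested on simulated calls. No test between conditions was made, since each call merges both replicates. The members, roles and companion lists (1 symbol of which, rtr-1, was not matched) were chosen with earlier results of these data known. All 40 members were named, with the adjacent genes of those called in a single condition, and the companion genes called in a single condition. Companion genes called in both or in neither that are named as examples were chosen after their calls were seen, as were the neighbours and stretches named for other members.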

Additional observations from a re-analysis of the deposited data

How the results depend on the processing

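No paired analysis was possible because each call merges the replicates of its condition, and for the same reason no replicate could be left out and no peak threshold changed. Of 22 alternatives, 18 stayed within the 95% exact interval of the reported share. The intervals over members and companions are wide, and many alternatives reuse most of the same genes. Staying within an interval therefore does not show that a share is stable. The share of members called, 67.5% in control and 80.0% in sig-7(RNAi), fell to 46.2% and 28.6% over the 13 and 7 members with no adjacent protein-coding gene called, a position in which 6.21% and 5.45% of protein-coding genes were called. The background share of 22.8% and 23.9% became 14.4% and 13.9% over all 46926 genes of the gene table, since these add piRNA, ncRNA and other noncoding genes and pseudogenes. Counting the adjacent cit-1.1 and cit-1.2 once gave 69.2% and 82.1%. The control-only share of members called in a single condition, 30.8%, was 50.0% over the 4 with no adjacent gene of the same class. With the depth unknown, a missing call does not show that polymerase was absent.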

Other observations

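Of the 40 machinery genes, 9 had a noncoding gene next in the order of gene starts, before the next protein-coding gene. Gene ends were not compared, so such a gene can lie within the machinery gene and share its peak. For 4 of the 9 the calls matched. M04D5.4 after cdk-9 was called in control only, as cdk-9 was. B0285.13 after cdk-12 and F36F2.9 after fcp-1 were called in both conditions, and the noncoding genes C55A6.15 and C55A6.20 after pafo-1 in neither, each like the machinery gene. For the other 5 they did not match. H14E04.7, after the cyclin C gene cic-1, was called in sig-7(RNAi) only, while cic-1 was called in both. F36A4.20 after ama-1, Y49F6B.18 after cyh-1, F17C8.10 after emb-5, and Y62F5A.13 and Y62F5A.11 after mdt-8 were called in neither condition.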
